A study of Mus musculus with 2 samples.

Results

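SHIP1, the PI3-kinases and the SGK and AKT kinases were followed as 9 genes, taken as every probeset of the array annotated to exactly 1 of the symbols Inpp5d, Inppl1, Pik3cd, Pik3cg, Pik3r1, Pik3ap1, Sgk3, Sgk1 and Akt1. The rule gave 25 of 45101 probesets and 9 of 18193 genes. The rule uses no signal, but the 9 symbols were proposed with earlier results of these data known, so their counts are a description. The cells were RAW264.7, a mouse macrophage-like line, carrying the retroviral vector MSCV that either encoded miR-155 or was empty. In both arms polybrene was present at infection, puromycin at 7 µg/ml was used for selection, and clones were grown from limiting dilution. RNA of 5 clones was pooled per arm and read on 1 Affymetrix mouse array, so there were 2 arrays and 1 sample per group. Clones that differ within a pool were not read apart, and no p-value was computed. The median signal over all probesets was 14.1 on the miR-155 array and 15.4 on the empty-vector array. All 9 macrophage markers reached the signal floor of 25.8 on both arrays. Of 24 markers of lymphocytes (B, T and NK), granulocytes (neutrophil and mast) and stroma, 1 reached it on the miR-155 array, and 0 did in the empty-vector cells. That marker, Cd8a, read 26.5 in miR-155 cells against 14.8 in empty-vector cells.

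PI3-kinases of class I phosphorylate a membrane lipid to PIP3, which draws kinases such as AKT to the plasma membrane. A catalytic subunit of the p110 type works with a regulatory subunit, and adaptors carry the enzyme to activated receptors. SHIP1, encoded by Inpp5d and largely restricted to blood cells, removes a phosphate from PIP3 and limits signalling by Fc and other receptors in macrophages. The widely expressed SHIP2, encoded by Inppl1, catalyses the same step. SGK kinases resemble AKT in their catalytic domain and share some of its substrates. The mRNA of Inpp5d is a reported direct target of miR-155.

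The mature strand expressed from the vector is shown because its seed is the stretch by which a microRNA chooses its targets. It is given from the RefSeq table for GRCm38.p6, at chr16:84714143-84714165 on the plus strand, with seed bases 2 to 8 in capitals.
mmu-miR-155-5p: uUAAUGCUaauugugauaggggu
No other mature mouse microRNA of that table has the same seed. The microRNA itself was not read by these probesets, and target sites in the transcripts of the 9 genes were not analysed here.

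Of the 9 genes, Sgk3 and Inpp5d read lower in the miR-155 cells by their brightest probeset, Sgk1 read higher, and the other 6 lay within 1.5-fold. At least 1.5-fold lower signal was thus found for 2 genes (22.2%), where 5.99% of the 9097 genes in the upper 50% of signal were as much lower. At least 1.5-fold higher signal was found for 1 gene (11.1%), against 5.32% of all genes kept. Sgk3 was also at least 2-fold lower, as were 1.43% of all genes kept, and 0 of the 9 were 2-fold higher, against 1.92% of all genes kept. All 9 genes belonged to the genes kept. Their median log2 ratio (miR-155 over empty vector) was −0.40, and that of all genes kept was −0.05. In bulk RNA, fewer cells that express a gene and less of its RNA per cell cannot be told apart.

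**Figure D1:**
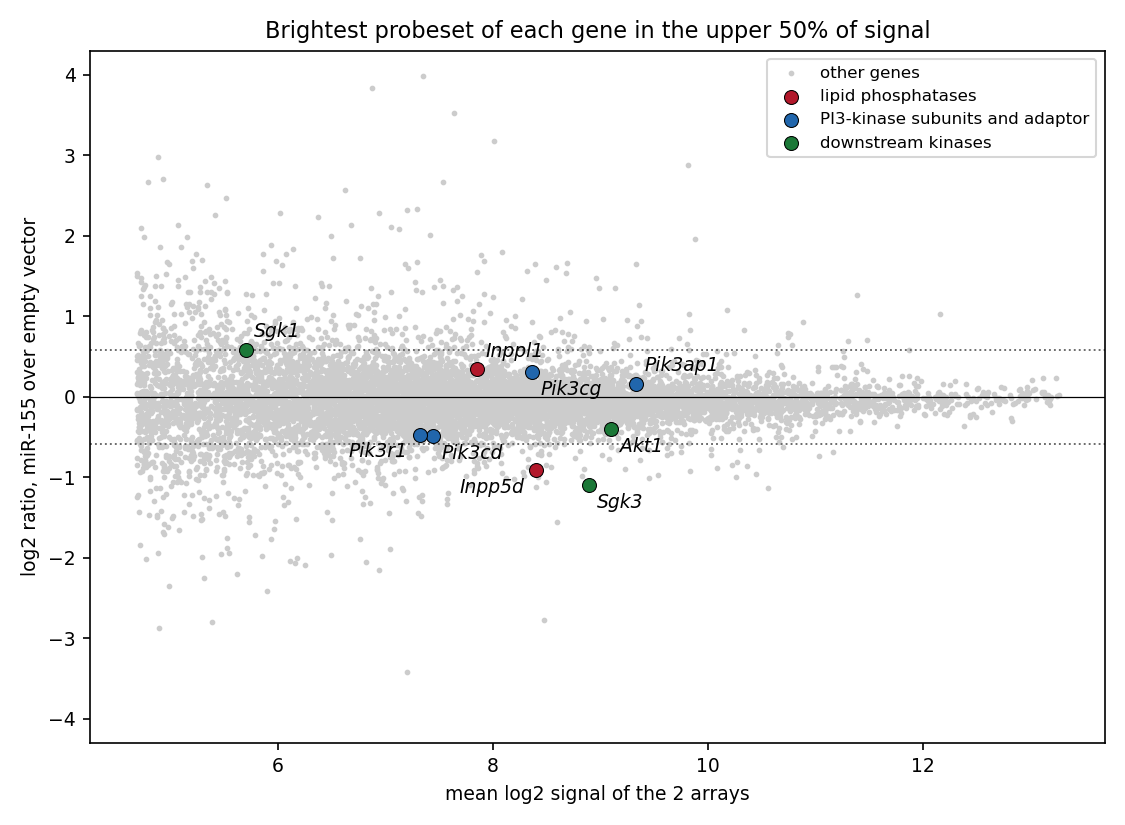
Log2 ratio of signals, miR-155 over empty vector (vertical axis), against the mean log2 signal of both arrays (horizontal axis) for the brightest probeset of each of the 9097 genes kept, with the 9 pathway genes in colour by role and dotted lines at 1.5-fold. Sgk3 and Inpp5d lie below the lower line at −1.10 and −0.91, Sgk1 lies on the upper line at 0.59, and the other 6 lie between the lines.

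The lipid phosphatases were the first of 3 roles. The brighter Inpp5d probeset, 1418110_a_at, had a signal of 247 in miR-155 cells, against 466 in empty-vector cells. That is 1.88-fold lower, a log2 ratio of −0.91, where the robust SD of the ratio among the 500 genes nearest in signal was 0.21. This local SD describes how far genes of like signal scatter between these arrays, and it includes any real differences among them. Of the genes kept, 2.04% had a lower ratio than Inpp5d.

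The other Inpp5d probeset, 1424195_a_at, did not show that difference: it read 169 in miR-155 cells and 171 in empty-vector cells (log2 ratio −0.02, local SD 0.27). The ratios of the pair thus differed by 0.89. Among 2416 genes with exactly 2 probesets at the floor on both arrays, the median difference between them was 0.20, and 3.27% of these genes differed by at least as much as Inpp5d. The suffix of both names marks probes shared by several transcripts of 1 gene, and which Inpp5d transcripts each one reads was not analysed here. The average of both ratios was −0.47, which is within 1.5-fold, so the call for SHIP1 rests on its brighter probeset.

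Inppl1 had a single probeset, which went the other way. It read 261 in miR-155 cells and 206 in empty-vector cells, 1.27-fold higher (log2 ratio 0.34, local SD 0.23). The SHIP paralogs therefore had ratios of opposite sign, SHIP2 with a smaller difference than the brighter SHIP1 probeset.

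**Figure D2:**
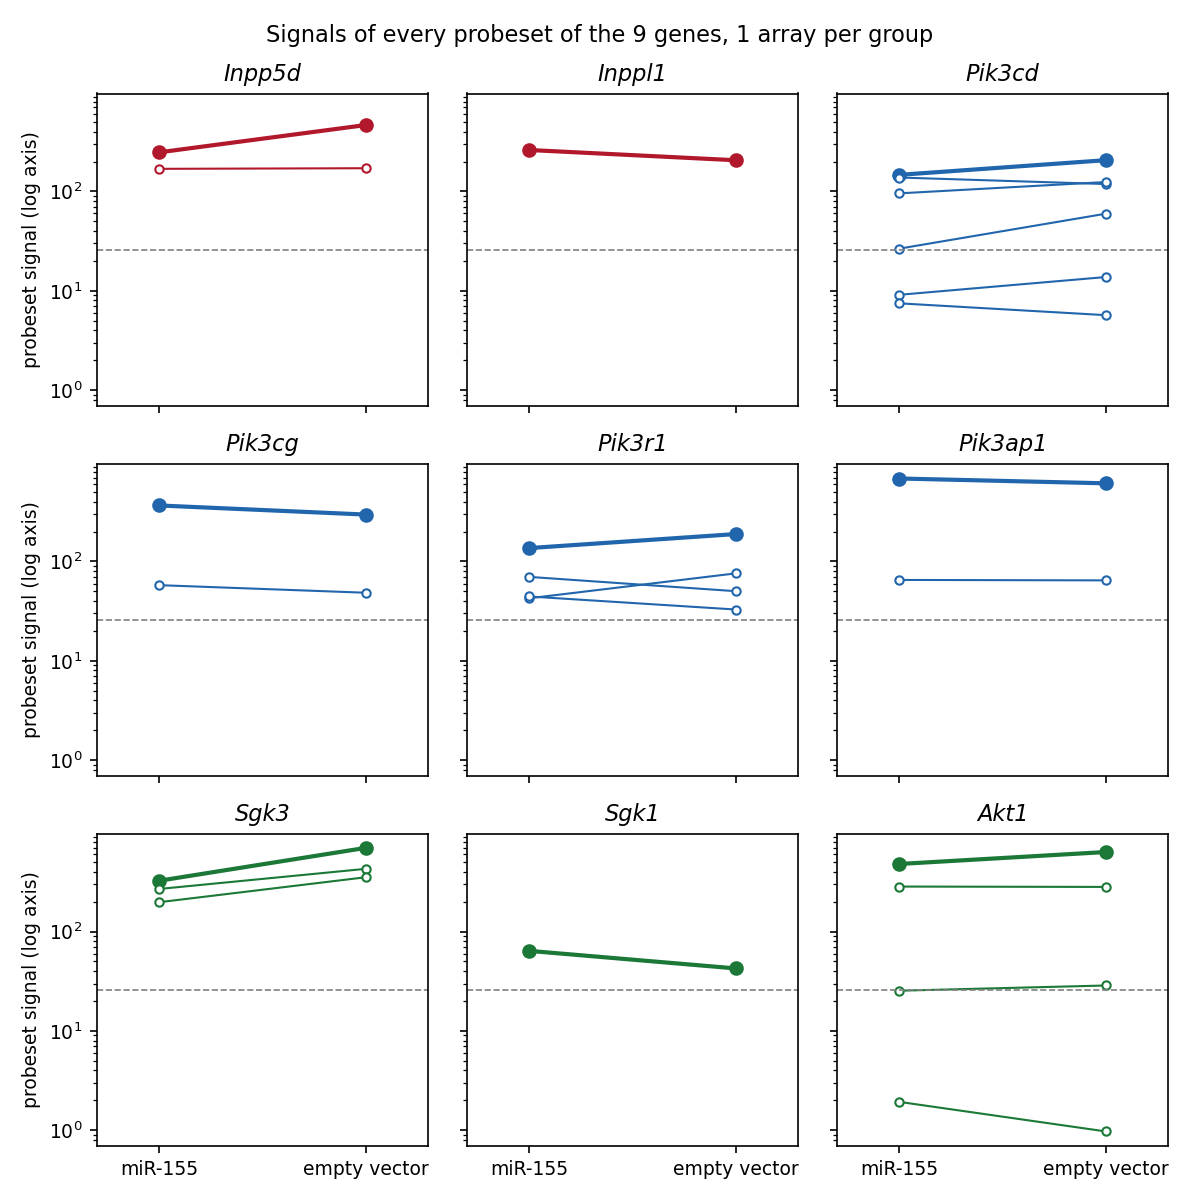
Probeset signals on a log axis for the 9 genes, with the miR-155 array on the left and the empty-vector array on the right of each panel, lines joining the readings of 1 probeset, filled points for the brightest probeset and a dashed line at the floor of 25.8. The 3 lines of Sgk3 all run lower on the miR-155 side, while those of Inpp5d, Pik3cd, Pik3r1 and Akt1 are not parallel. Heights of different probesets are not comparable.

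Among the PI3-kinase genes, Pik3cd encodes p110δ, the catalytic subunit that acts mainly downstream of tyrosine kinases in leukocytes. Its brightest probeset, 1453281_at, read 147 in miR-155 cells and 206 in empty-vector cells, 1.41-fold lower (log2 ratio −0.49, local SD 0.26). Probeset 1422992_s_at read 95.6 in miR-155 cells and 124 in empty-vector cells (−0.38). Probeset 1422991_at read 26.6 in miR-155 cells against 59.8 in empty-vector cells (−1.17), but its miR-155 reading lay just above the floor and its local SD was 0.58. The fourth at the floor, 1443798_at, went the other way, with 138 in miR-155 cells and 119 in empty-vector cells (0.22). The 2 remaining Pik3cd probesets were below the floor on both arrays, with 9.11 and 7.48 in miR-155 cells against 13.8 and 5.68 in empty-vector cells. Of the 4 usable probesets of p110δ, 3 thus read lower, over a range of 1.39 log2 units.

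Pik3cg encodes p110γ, the catalytic subunit driven by G-protein-coupled receptors in myeloid cells. It read 366 in miR-155 cells and 296 in empty-vector cells by 1422707_at, 1.23-fold higher (log2 ratio 0.30, local SD 0.21). Its dimmer probeset read 57.8 in miR-155 cells and 48.5 in empty-vector cells (0.25), the same direction and nearly the same size. Catalytic subunits of the delta and gamma type thus differed in the sign of their brightest probeset, with neither past 1.5-fold.

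Pik3r1 encodes p85α and shorter regulatory subunits made from the same gene. Its brightest probeset, 1438682_at, read 136 in miR-155 cells and 189 in empty-vector cells (log2 ratio −0.47, local SD 0.27). The others split: 1425515_at read 42.6 in miR-155 cells against 76.0 in empty-vector cells (−0.83), whereas 1425514_at read 70.0 in miR-155 cells against 50.2 in empty-vector cells (0.48) and 1451737_at read 44.4 in miR-155 cells against 32.8 in empty-vector cells (0.44). The 4 ratios spanned 1.31, and their mean was −0.10. Of 514 genes with at least 4 probesets at the floor, 2.72% spanned as wide a range as Pik3r1 and 1.56% as wide a range as Pik3cd, around a median range of 0.51. Of the 4 Pik3r1 probesets, 2 thus read lower and 2 higher.

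Pik3ap1 encodes BCAP, an adaptor that brings PI3-kinase to receptors of B cells and to Toll-like receptor signalling in macrophages. It read 684 in miR-155 cells and 612 in empty-vector cells (log2 ratio 0.16, local SD 0.19), and its dimmer probeset read 65.2 in miR-155 cells and 64.6 in empty-vector cells (0.01). Both differences were smaller than the local SD.

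**Figure D3:**
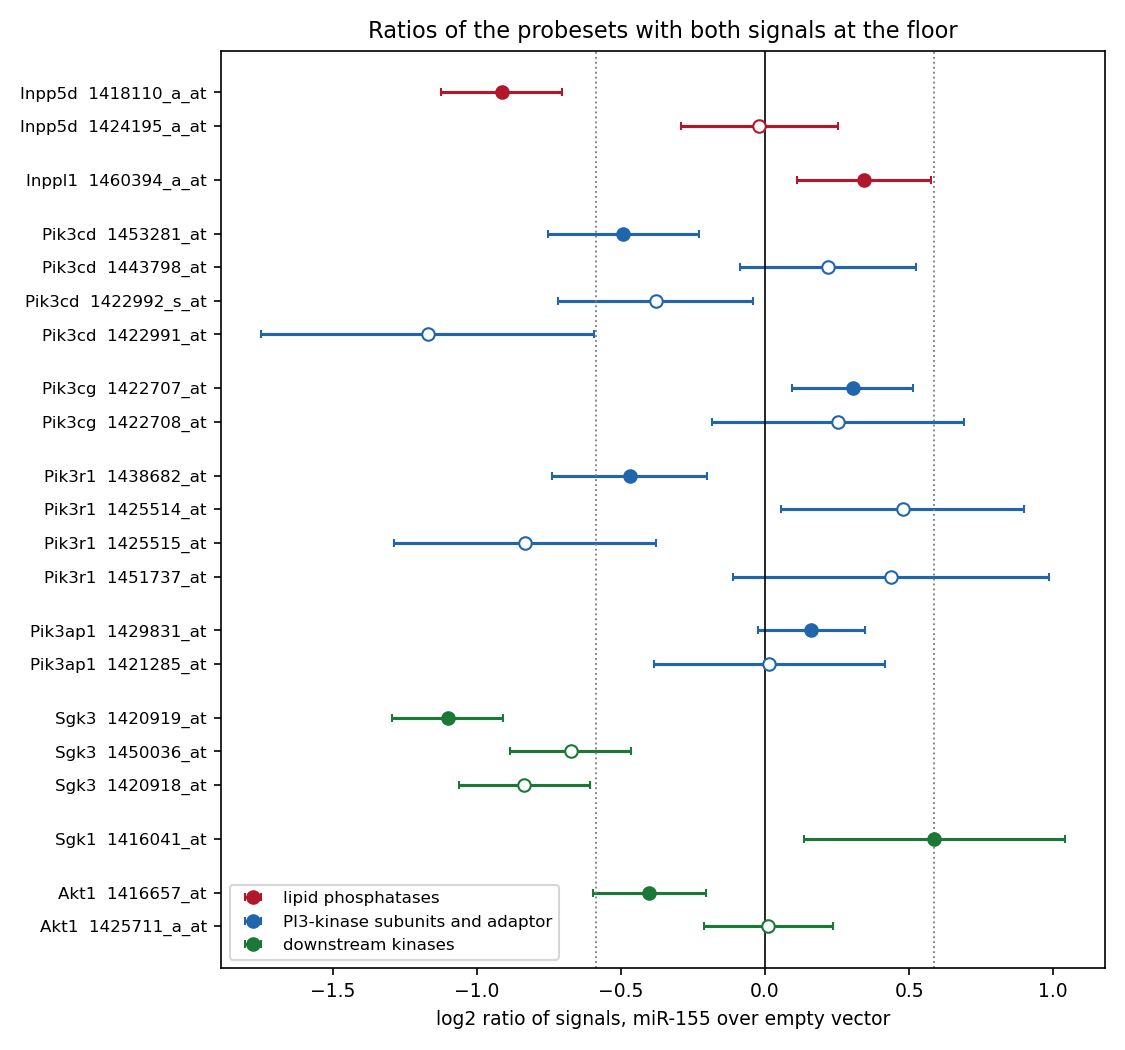
Log2 ratio of signals, miR-155 over empty vector, for the 21 probesets that reached the floor on both arrays, coloured by role, with filled points for the brightest probeset of a gene, bars for plus and minus 1 local robust SD and dotted lines at 1.5-fold. The 3 Sgk3 probesets lie left of the lower line, and the points of Pik3cd, Pik3r1 and Inpp5d are spread on or across 0.

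The downstream kinases went both ways. Sgk3, a kinase whose PX domain binds a PI3-kinase product on endosomes, read 325 in miR-155 cells and 696 in empty-vector cells by 1420919_at, 2.14-fold lower (log2 ratio −1.10, local SD 0.19). Probeset 1450036_at read 268 in miR-155 cells against 428 in empty-vector cells (−0.67, local SD 0.21). Probeset 1420918_at read 197 in miR-155 cells against 352 in empty-vector cells (−0.84, local SD 0.23). All 3 were at least 1.5-fold lower, and their range of 0.43 was close to the median range of 0.35 among 962 genes with 3 probesets at the floor. Of 1476 genes with 3 or more probesets at the floor, 10 (0.678%) had all of them at least 1.5-fold lower, Sgk3 among them. By its brightest probeset Sgk3 ranked 106 from the lowest of the 9097 genes kept.

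Sgk1, the family member induced by serum and glucocorticoids, read 63.9 in miR-155 cells and 42.5 in empty-vector cells by its only probeset, just past 1.5-fold higher (log2 ratio 0.59). The probeset was dim and its local SD was 0.45, so the ratio lay 1.35 local SDs from the local median, and 5.29% of all genes kept had a higher one. With an offset of 50 added to both signals the log2 ratio was 0.30, within 1.5-fold. The SGK paralogs therefore had ratios of opposite sign, and the brightest Sgk3 probeset lay −5.40 local SDs from its local median.

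Akt1, the AKT isoform best known for survival and growth signalling, read 479 in miR-155 cells and 632 in empty-vector cells by 1416657_at, 1.32-fold lower (log2 ratio −0.40, local SD 0.20). Its next probeset, 1425711_a_at, read 284 in miR-155 cells and 281 in empty-vector cells (0.01). The other 2 had readings below the floor, at 25.4 and 1.93 in miR-155 cells against 28.7 and 0.97 in empty-vector cells. The lower reading of Akt1 was thus carried by 1 probeset.

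Of the 21 probesets with both readings at the floor, 11 read lower in the miR-155 cells and 10 higher. At least 1.5-fold differences were found for 6 in the lower direction (3 of Sgk3 and 1 each of Inpp5d, Pik3cd and Pik3r1) and for 1 in the higher direction (Sgk1). Over all 14908 such probesets with 1 gene symbol, 5.58% were as much lower and 4.06% as much higher. Probesets of 1 gene share its transcripts and are not replicates.

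Set side by side, the roles did not separate. The mean log2 ratio was −0.29 for the 2 lipid phosphatases, −0.12 for the 4 PI3-kinase subunits and adaptor and −0.30 for the 3 downstream kinases. The phosphatases minus the PI3-kinase genes gave −0.16, and the spread of such a difference, combined from the local SDs of its genes, was 0.20. The phosphatases minus the downstream kinases gave 0.02, with a combined spread of 0.24. Each role held ratios of both signs, and the SD between its genes was 0.89 for the phosphatases, 0.42 for the PI3-kinase genes and 0.85 for the downstream kinases. Both differences were thus smaller than the scatter of the genes within a role.

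Promoter letters are shown for Inpp5d and Pik3cg because, of the members with a promoter window, they hold a PU-box, the motif known for the myeloid factor PU.1, while their brightest probesets differed in sign. The RefSeq table for GRCm38.p6 held windows of 250 bases before to 50 after a start for 8 of the 9 genes, all but Sgk3, with 19 windows in all. The letters GAGGAAGT (ACTTCCTC on the other strand) occurred in 3 of these windows, of Inpp5d and Pik3cg, and in 3.20% of all 32851 windows. The Pik3cg windows overlap and hold the same match, so the 3 windows stand for 2 places in the genome. The forkhead letters GTAAACA, on either strand, occurred in 2 of them, of Akt1 and Pik3cg, and in 3.65% of all windows. The first window lies at chr1:87620062-87620361 on the plus strand and the second at chr12:32208610-32208909 on the minus strand, with the PU-box letters in capitals.
Inpp5d: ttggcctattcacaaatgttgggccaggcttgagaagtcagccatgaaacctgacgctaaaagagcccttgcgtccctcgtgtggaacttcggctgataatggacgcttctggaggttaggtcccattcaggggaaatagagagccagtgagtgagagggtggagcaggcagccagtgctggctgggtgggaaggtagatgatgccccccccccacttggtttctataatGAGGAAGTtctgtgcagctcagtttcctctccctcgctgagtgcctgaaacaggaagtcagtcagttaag
Pik3cg: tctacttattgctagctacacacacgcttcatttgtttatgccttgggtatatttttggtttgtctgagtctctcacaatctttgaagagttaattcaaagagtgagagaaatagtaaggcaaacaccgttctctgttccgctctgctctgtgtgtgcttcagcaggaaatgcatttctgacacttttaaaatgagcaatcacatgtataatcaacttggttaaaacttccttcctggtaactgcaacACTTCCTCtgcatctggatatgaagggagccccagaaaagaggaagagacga
In Inpp5d the match begins at base −20 from the annotated start. In Pik3cg it is on the other strand, begins at base −2 and runs over the start. Spi1, which encodes PU.1, read 700 in miR-155 cells and 1067 in empty-vector cells (log2 ratio −0.61, local SD 0.17), and its part in the ratios of either gene was not tested. A match of letters is no measured binding site.

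Around the 9 genes, 7 lists of related genes were read, from inositol lipid phosphatases to targets of the pathway. They named 164 genes, of which 155 had a probeset with 1 symbol and 133 were kept, the 9 included. Of these 133, 18 (13.5%) were at least 1.5-fold lower in miR-155 cells and 8 (6.02%) at least 1.5-fold higher. The shares over all genes kept were 5.99% and 5.32%. A rescaling of the arrays that narrowed the gap between their medians without closing it adds the same constant to every log2 ratio. The counts were then 13 lower (9.77%, against 4.57% of all genes kept) and 15 higher (11.3%, against 7.06%). With quantile normalisation, which makes the medians equal, they were 17 lower (12.8%, against 5.11%) and 12 higher (9.02%, against 6.25%). The median log2 ratio of the 133 genes was −0.05, and that of all genes kept was −0.05 as well.

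**Figure D4:**
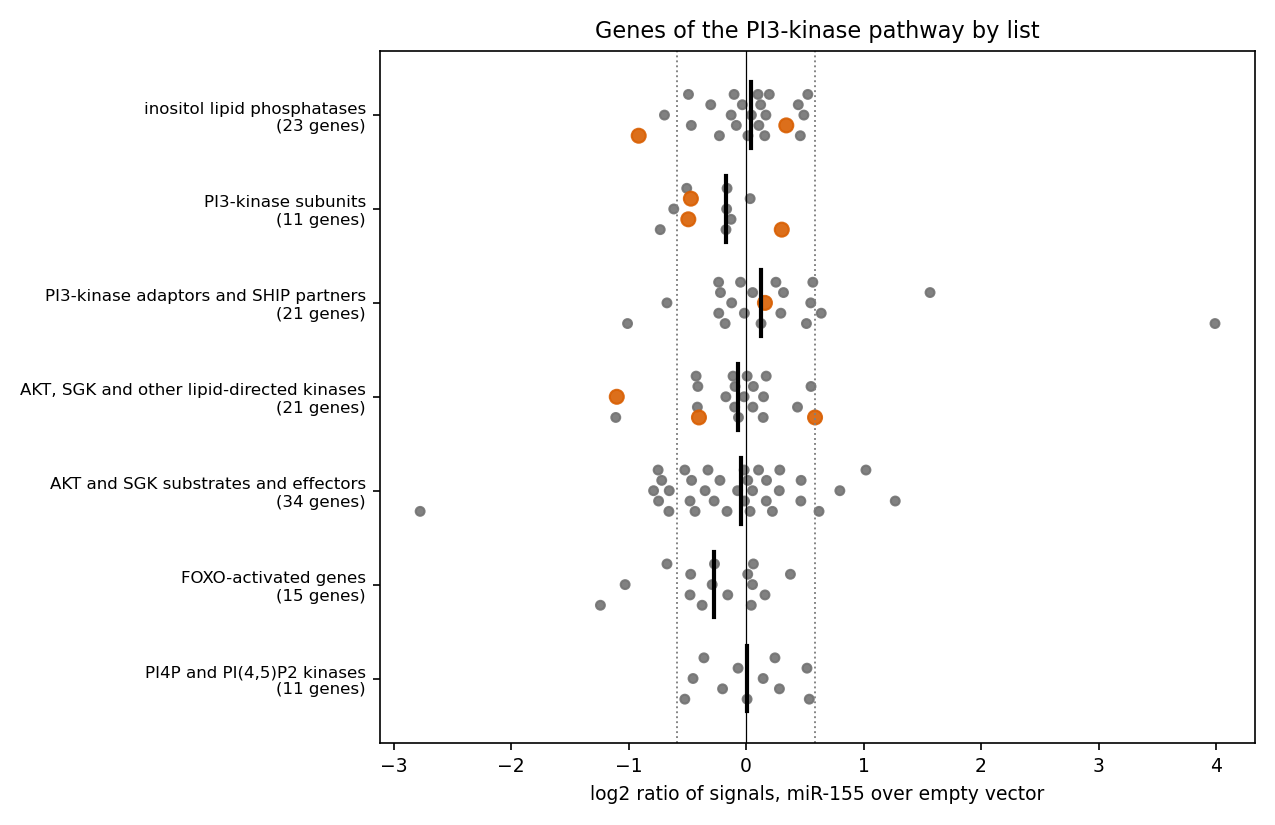
Log2 ratio of signals, miR-155 over empty vector, for the genes kept of the 7 lists, 1 point per gene by its brightest probeset, with the 9 pathway genes as large orange points, a black bar at each list's median and dotted lines at 1.5-fold. Medians lie between −0.27 and 0.13, and Fcgr2b at 3.99 and Tcl1b3 at −2.77 are the farthest points.

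Among 23 inositol lipid phosphatases, SHIP1 had the lowest ratio by its brighter probeset (−0.91). Its other probeset gave −0.02, and the average of both, −0.47, lay above the −0.69 of Inpp4a. Inpp4a, which acts on the product of SHIP1, was the only other gene at least 1.5-fold lower by its brightest probeset. It read 21.8 in miR-155 cells, below the floor, and 35.3 in empty-vector cells. Inpp5k gave 0.17 by its brightest probeset but −0.60 by a further one at the floor. None of the list was as much higher. The highest was the synaptojanin Synj2 at 0.53, and the list's median was 0.05.

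Of 11 PI3-kinase subunits, 9 read lower in miR-155 cells by their brightest probesets, 2 of them by at least 1.5-fold. The median log2 ratio of the 11 was −0.17, and that of all genes kept was −0.05. How many of all genes kept read lower by any amount was not counted. For Pik3cb, Pik3r6, Pik3c2a and Pik3c3 the difference was smaller than the local SD, and a further probeset of Pik3r6 gave 0.51. Pik3r5, the p101 subunit that partners p110γ, read 140 in miR-155 cells and 233 in empty-vector cells (−0.73, local SD 0.28). Pik3ca, encoding p110α, read 92.5 in miR-155 cells and 142 in empty-vector cells (−0.61), against −0.27 and −0.23 in its further probesets at the floor. The highest was Pik3cg, so the gamma catalytic subunit and its p101 partner had ratios of opposite sign.

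Of 21 adaptors and SHIP partners, 3 were at least 1.5-fold higher and 2 lower, around a median of 0.13. Fcgr2b, the inhibitory Fc receptor that docks SHIP1 at its cytoplasmic tail, read 650 in miR-155 cells and 40.9 in empty-vector cells (log2 ratio 3.99). Cd300lf, a myeloid receptor of the CD300 family, read 100.2 in miR-155 cells and 33.8 in empty-vector cells (1.57). The adaptor Dok2 read 714 in miR-155 cells and 458 in empty-vector cells (0.64). On the lower side were the inhibitory receptors Cd300a, with 196 in miR-155 cells and 395 in empty-vector cells (−1.01), and Sirpa, the receptor for CD47, with 355 in miR-155 cells and 566 in empty-vector cells (−0.67). Inhibitory receptors were thus found on both sides, while SHIP1's brighter probeset read lower.

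Of 21 kinases of the AKT and SGK branch and their regulators, 2 were at least 1.5-fold lower and 1 higher, with a median of −0.06. Beside the SGK pair this was Deptor, an inhibitor of mTOR, with 40.3 in miR-155 cells and 86.9 in empty-vector cells (log2 ratio −1.11, local SD 0.42). Its 2 further probesets at the floor were also at least 1.5-fold lower, one at −1.28, which places it with Sgk3 among the 10 genes with every such probeset at least 1.5-fold lower. By their brightest probesets the AKT paralog Akt2 lay at −0.11 and Pdpk1, the kinase that activates both AKT and SGK, at 0.15. Their further probesets at the floor gave 0.41 for Akt2 and −0.13 for Pdpk1.

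Of 34 substrates and effectors, 7 were at least 1.5-fold lower and 4 higher, around a median of −0.04. Ndrg1, a substrate of SGK1, read 130 in miR-155 cells and 64.1 in empty-vector cells (log2 ratio 1.02), with 0.55 to 0.95 in 4 further probesets. Vav3 (1.27), the death promoter Bad (0.80) and the Rab regulator Tbc1d1 (0.62) were the others higher, with local SDs of 0.45, 0.31 and 0.40. Their further probesets at the floor gave smaller ratios, 0.64 and 0.81 for Vav3, 0.32 for Bad and 0.41 for Tbc1d1. Rheb, the GTPase that activates mTORC1, read 1002 in miR-155 cells and 1579 in empty-vector cells (−0.66, local SD 0.15). The PIP3-dependent exchange factor Prex1 read 152 in miR-155 cells and 255 in empty-vector cells (−0.74).

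Ndrg2, a relative of Ndrg1, read 405 in miR-155 cells and 666 in empty-vector cells (log2 ratio −0.72). The phospholipase Plcg1 (−0.79), the ubiquitin ligase Nedd4l (−0.75) and the Rab regulator Tbc1d4 (−0.65) were dimmer, with local SDs of 0.54, 0.44 and 0.45. Tcl1b3, of the family whose human founder TCL1A binds AKT, was lowest at −2.77 (local SD 0.21). It read 137 in miR-155 cells and 935 in empty-vector cells by its only probeset, so no other probeset could be compared. By their brightest probesets the Ndrg pair and the Tbc1d pair each held ratios of both signs, as the SHIP and SGK pairs did. By the same measure other pairs shared a sign: Akt1 and Akt2 read lower (−0.40 and −0.11), and Foxo1 and Foxo3 read higher (0.17 and 0.06). For Akt2, Foxo1 and Foxo3 the difference was smaller than the local SD (0.28, 0.44 and 0.30). Further probesets at the floor gave 0.01 for Akt1, 0.41 for Akt2, −0.23 for Foxo1 and 0.01 for Foxo3. The shared signs thus depend on the probeset.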

How the data were processed

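Biotin-labelled RNA was hybridised by the manufacturer's procedures, per the labels' protocols. The authors deposited linear intensities per probeset. How these were summarised, background-corrected and scaled is not given in these sources. Gene names came from the platform annotation and were checked by Entrez identifier against RefSeq (GRCm38.p6): 34945 had 1 symbol, 34741 of them with an identifier in that table, and 0 symbols changed. The log2 ratio is miR-155 minus empty vector, with no offset. For each of 18193 genes the brightest probeset (by mean log2 signal) was used, and genes in the upper 50%, with a geometric mean of at least 25.8, were kept. Local SDs are scaled median absolute deviations over the 500 genes nearest in signal. With 1 array per group nothing was tested, and the number of arrays limits the precision. Only the local SD and the 1.5-fold call were tested on simulated data, with effects larger than those of the members. Named were every member and, of the lists, each gene past 1.5-fold with both readings at the floor and each list's extremes. Inpp4a and S1pr1, past 1.5-fold with the miR-155 reading below the floor, were also named. Cd8a, Akt2, Pdpk1, Foxo1, Foxo3 and Spi1 were added after their values were seen. Members and lists were chosen with earlier results of these data known. Python 3.11.15, numpy 2.4.6, pandas 2.3.3 and matplotlib 3.10.9 were used.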

Additional observations from a re-analysis of the deposited data

How the results depend on the processing

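The 9 members' log2 ratios were recomputed under 8 alternatives, which gave 67 values, since some genes have no probeset in a setting. The settings for the floor, the filter and plain probesets left each member's ratio unchanged wherever it had a value. The rescaling added a constant smaller than every member's local SD. These settings could therefore not move a ratio by its local SD, and only averaging, quantile normalisation and the offset could. Of the 67 values, 66 kept their sign and 63 moved by less than the local SD. The exceptions came from averaging all probesets of a gene: Inpp5d was then −0.47 and within 1.5-fold, Pik3r1 −0.10, Sgk3 −0.87 and still at least 1.5-fold lower, and Akt1 0.11, the 1 change of sign. That Akt1 average includes probesets with readings below the floor, and over its 2 probesets at the floor the mean was −0.19. Sgk1 dropped within 1.5-fold with an offset of 50. Sgk3 ranged from −1.10 to −0.87. Where they could be computed, the differences between roles moved by less than their spread. The rescaling, the floor and the lifting of the filter could not change these differences. Only averaging, quantile normalisation and the offset bear on them. The differences had no value with plain probesets, which leave out both phosphatases. Nor had they one in the upper 25% of signal, which leaves out Pik3cd, Pik3r1 and Sgk1. The 8 higher of 133 pathway genes became 15 with the rescaling that narrowed the gap between the array medians (11.3%, against 7.06% of all genes kept). They became 5 with an offset of 50 (3.76%, against 2.15%), 1 of 62 in the upper 25% of signal (1.61%, against 2.42%) and 17 of 155 with no filter (10.97%, against 17.1%). The 18 lower ones became 10 with the offset (7.52%, against 2.07%), 9 of 62 in the upper 25% of signal (14.5%, against 2.09%) and 23 of 155 with no filter (14.8%, against 21.2%). No paired analysis was possible because each group has 1 array. Dim probesets, with large local SDs, limit Sgk1 and the further probesets of Pik3cd and Pik3r1.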

Other observations

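Genes that FOXO factors activate, which AKT and SGK restrain by phosphorylating FOXO, had a median log2 ratio of −0.27 over the 15 kept. Of these, 3 were at least 1.5-fold lower in miR-155 cells and 0 as much higher, where 5.99% and 5.32% of all genes kept were. Klf4, a myeloid transcription factor, read 276 in miR-155 cells and 441 in empty-vector cells (log2 ratio −0.67, local SD 0.21), with −0.52 in its further probeset. The mitochondrial kinase Pink1 (19.9 in miR-155 cells and 47.0 in empty-vector cells) and the sphingosine phosphate receptor S1pr1 (23.8 in miR-155 cells and 48.6 in empty-vector cells) each had the miR-155 reading below the floor. The highest was the cyclin Ccng2 at 0.38, with 0.54 in its further probeset. The FOXO genes themselves were near 0, Foxo1 at 0.17 and Foxo3 at 0.06.

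The list of inositol lipid kinases other than the PI3-kinases showed no gene past 1.5-fold by its brightest probeset. All 11 were kept, with a median of 0.01, from −0.52 for Pip5k1b to 0.54 for Pi4kb. The further probesets of Pip5k1b gave −1.69 and −0.72, so its brightest probeset carried the smallest difference. Pip5k1a lay at −0.07 by its brightest probeset, and its 3 further ones at the floor ranged from −1.26 to 0.05. Pip4k2c lay at 0.25, with 0.80 in its further probeset at the floor.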
